A study of Mus musculus with 8 samples.

Results

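The Vmn2r genes encode the type 2 vomeronasal receptors, G protein-coupled receptors with a large extracellular domain that bind peptide and protein cues in the vomeronasal organ, the pheromone-sensing organ of the mouse nose. The 31 genes described here are the Vmn2r genes that lie outside the large clusters of chromosomes 7 and 17. They were chosen by symbol and chromosome alone, as genes named Vmn2r followed by a number, without Vmn2r1 to Vmn2r7, which encode the broadly co-expressed family C co-receptors, and without Vmn2r88. They are 31 of 120 genes with such a symbol and of 48831 genes in the deposited tables. Of the other Vmn2r genes, 51 lie on chromosome 7 and 31 on chromosome 17.

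A sensory neuron of the basal vomeronasal layer as a rule expresses a single Vmn2r gene of this kind, together with family C co-receptors, the G protein subunit Gnao1 and, in part of the cells, H2-Mv genes of the major histocompatibility complex. Each receptor is thus made by a small share of the neurons, and neighbouring genes of a cluster are used by different neurons. In RNA from whole tissue, fewer neurons that express a receptor and less RNA per neuron cannot be told apart.

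RNA was sequenced from the vomeronasal epithelium of C57BL/6J mice aged 8 weeks, with no allele or agent named apart from the heparin flush, in 8 libraries. The 2 male pools and the 2 female pools each held tissue of 2 mice that was not flushed, and the 2 flushed females and 2 flushed males were single mice whose tissue was flushed of blood. The protocol text shared by all labels speaks of flushing throughout, and the sample descriptions were followed here. Flushing and pooling always go together, and the file headers also place pools and single mice in different processing folders and sequencing lanes, so these factors cannot be told apart and are called preparation below. Replicates were separate pools or separate mice, per the labels.

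Total counts were 18763557 to 24965088 per library. Counts of Y-linked genes were at least 582 in each male library and at most 6 in each female library. Omp, the marker of mature sensory neurons, was at 417 ± 57.2 CPM, the count scaled to a fixed library size, in pools and 375 ± 27.96 in flushed mice (SD, n = 4 each). Gnao1 of basal neurons was at 57.8 ± 2.12 and 52.1 ± 4.82. Trpc2, the transduction channel of vomeronasal neurons, had a count of 0 in all 8 libraries, while Xntrpc, whose annotation covers it on the same strand, had 416 to 692 counts and reads over more than 1 gene were not counted. Summed CPM of 10 red blood cell genes were 1667 to 2085 in pools and 114 to 636 in flushed mice.

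The 31 genes lie in 8 blocks on 6 chromosomes (GRCm38), a block being a run of genes whose starts are under 1 Mb apart. The largest is chr5:108791746-109479552 with 10 genes, Vmn2r8 to Vmn2r17. Next is chr6:123308333-124231784 with 9 genes, Vmn2r19 to Vmn2r27. Chromosome 10 carries a pair of blocks of 4 genes each, chr10:79148797-79493675 with Vmn2r80 to Vmn2r83 and chr10:130375896-130497379 with Vmn2r84 to Vmn2r87. The other 4 genes stand alone among the 31, namely Vmn2r125 (chr4:156349921-156354578), Vmn2r18 (chr5:151559689-151586906), Vmn2r89 (chr14:51451962-51461293) and Vmn2r121 (chrX:124126516-124135910). They are not all isolated, since the rule leaves out pseudogenes and Vmn2r88. Vmn2r-ps159 lies 10422 bases from Vmn2r125, Vmn2r-ps26 10422 from Vmn2r18 and Vmn2r-ps111 19919 from Vmn2r89. Vmn2r121 has no other Vmn2r gene or pseudogene on its chromosome. GENCODE M21 annotates 30 of the 31 as protein-coding and Vmn2r125 as an unprocessed pseudogene. Exon lengths in the files run from 1110 bases for Vmn2r125 to 28715 for Vmn2r17, with a median of 8910.

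The start-site windows of these genes fell into groups that only partly followed the chromosomes. RefSeq windows of 300 bases, 250 before and 50 after the annotated start (GRCm38.p6), were found for 29 of the 31 genes and not for Vmn2r21 and Vmn2r125. The RefSeq start lay within 1 base of the start in the files for 24 of the 29. Such an annotated start need not be where transcription begins. Globally aligned, windows of the same block had a median identity of 82.4% (85 pairs, 60.2 to 96.0%), and windows of different blocks 49.1% (321 pairs, 41.2 to 92.7%). The pairs that carry this pattern are printed 5′ to 3′ on the gene's strand.

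The closest pair between chromosomes was Vmn2r89 (chr14:51451712-51452011, plus strand) and Vmn2r121 (chrX:124135861-124136160, minus strand), whose windows were 92.7% identical, with 279 identical, 20 mismatched and 2 unpaired positions. Capitals mark the positions that differ.
Vmn2r89: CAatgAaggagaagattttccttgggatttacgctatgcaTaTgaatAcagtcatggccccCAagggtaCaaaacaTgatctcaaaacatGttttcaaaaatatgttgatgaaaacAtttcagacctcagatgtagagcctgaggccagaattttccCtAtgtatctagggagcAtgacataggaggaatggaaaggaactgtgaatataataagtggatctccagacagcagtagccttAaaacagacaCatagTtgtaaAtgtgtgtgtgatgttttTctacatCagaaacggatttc
Vmn2r121: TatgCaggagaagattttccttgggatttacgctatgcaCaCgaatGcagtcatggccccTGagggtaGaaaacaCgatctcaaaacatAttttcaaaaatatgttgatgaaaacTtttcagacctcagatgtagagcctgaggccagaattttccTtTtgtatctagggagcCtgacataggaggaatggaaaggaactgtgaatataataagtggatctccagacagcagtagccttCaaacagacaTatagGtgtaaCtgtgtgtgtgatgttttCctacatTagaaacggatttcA

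The window most like both of them was that of Vmn2r129, a RefSeq gene on chromosome 4 at 93.4% to Vmn2r89 and 94.0% to Vmn2r121. RefSeq Vmn2r129 has the coordinates of the GENCODE gene Vmn2r-ps159 (chr4:156331103-156339499), which ends 10422 bases before Vmn2r125 on the same strand. The transcripts of Vmn2r89, Vmn2r121 and Vmn2r125 were alike as well. By blastn, Vmn2r89 and Vmn2r121 were 91.9% identical over 3596 bases, Vmn2r121 and Vmn2r125 93.6% over 1353 bases, and Vmn2r89 and Vmn2r125 94.6% over 1376 bases.

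A second link between chromosomes joined the chromosome 5 block of 10 to the distal chromosome 10 block. The 40 pairs between Vmn2r8 to Vmn2r17 and Vmn2r84 to Vmn2r87 were 70.8 to 85.8% identical with a median of 80.5%, whereas the 40 pairs between Vmn2r8 to Vmn2r17 and the proximal chromosome 10 block, Vmn2r80 to Vmn2r83, were 48.0 to 54.9% identical. The highest of the former was Vmn2r11 (chr5:109059403-109059702, minus strand) with Vmn2r84 (chr10:130394192-130394491, minus strand), with 260 identical and 37 mismatched positions, marked in capitals with the unpaired ones.
Vmn2r11: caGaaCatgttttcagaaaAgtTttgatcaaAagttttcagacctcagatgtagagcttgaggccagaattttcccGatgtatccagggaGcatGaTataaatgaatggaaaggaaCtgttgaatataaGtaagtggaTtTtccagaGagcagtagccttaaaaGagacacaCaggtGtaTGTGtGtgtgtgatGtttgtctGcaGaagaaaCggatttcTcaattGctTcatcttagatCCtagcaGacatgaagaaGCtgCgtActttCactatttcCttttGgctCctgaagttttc
Vmn2r84: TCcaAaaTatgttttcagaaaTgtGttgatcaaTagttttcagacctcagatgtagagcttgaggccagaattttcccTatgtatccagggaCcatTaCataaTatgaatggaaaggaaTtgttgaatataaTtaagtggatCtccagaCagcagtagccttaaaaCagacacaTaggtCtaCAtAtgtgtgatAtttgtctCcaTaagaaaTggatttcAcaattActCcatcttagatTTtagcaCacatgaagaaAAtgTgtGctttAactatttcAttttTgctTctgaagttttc

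Within the chromosome 6 block, Vmn2r20 (chr6:123418012-123418311, minus strand) and Vmn2r22 (chr6:123650586-123650885, minus strand) had the most alike windows of all, 96.0% identical with 12 mismatches in capitals, all of them upstream of the start.
Vmn2r20: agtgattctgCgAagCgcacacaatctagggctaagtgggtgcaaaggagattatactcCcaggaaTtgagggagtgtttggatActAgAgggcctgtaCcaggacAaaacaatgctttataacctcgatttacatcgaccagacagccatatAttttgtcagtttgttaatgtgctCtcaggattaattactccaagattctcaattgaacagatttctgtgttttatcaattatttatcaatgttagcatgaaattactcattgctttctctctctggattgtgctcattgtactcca
Vmn2r22: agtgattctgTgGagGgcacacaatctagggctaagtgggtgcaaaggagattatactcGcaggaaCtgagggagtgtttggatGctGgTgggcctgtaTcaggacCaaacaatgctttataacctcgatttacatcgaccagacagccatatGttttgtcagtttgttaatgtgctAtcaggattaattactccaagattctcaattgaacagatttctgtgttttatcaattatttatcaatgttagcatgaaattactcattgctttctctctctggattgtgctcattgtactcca

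Vmn2r18 stood apart from all of them. Its nearest window among all Vmn2r genes was that of Vmn2r96 at 54.2%, and its identity to windows of the other blocks was 45.5 to 51.5%. The map of window identities shows 4 bright squares on the diagonal, the square off the diagonal that joins the chromosome 5 block to the distal chromosome 10 block, the bright pair of Vmn2r89 and Vmn2r121 and the row of Vmn2r18, dark throughout.

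**Figure D1:**
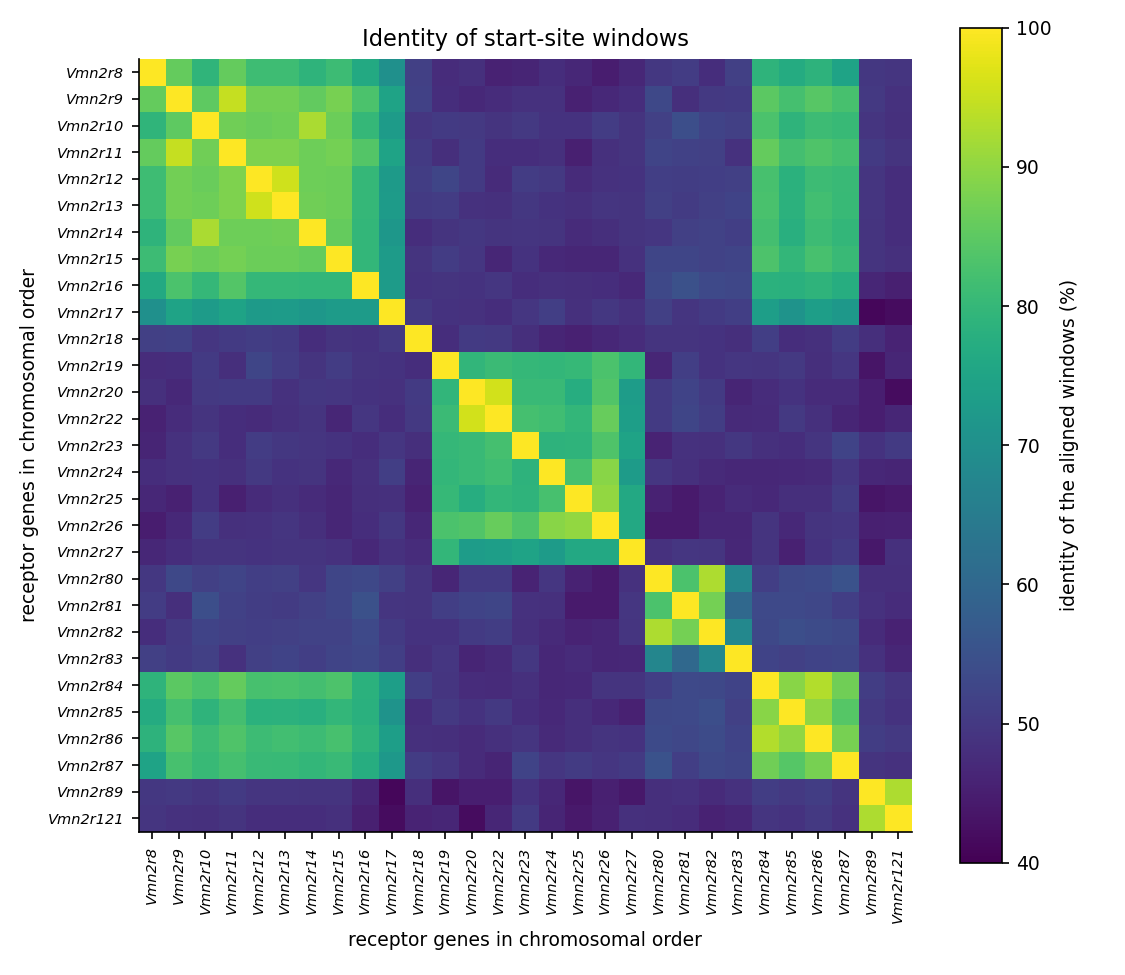
Identity of the aligned 300-base start-site windows of 29 genes, in % on the colour scale, with genes in chromosomal order on both axes and each gene set to 100 against itself. Bright squares are the blocks of chromosomes 5, 6 and 10, and the off-diagonal square joins Vmn2r8 to Vmn2r17 with Vmn2r84 to Vmn2r87 at a median of 80.5%. Unpaired positions count against identity, which lowers Vmn2r89 and Vmn2r121 against the genes of that square.

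Of 4 motifs searched on both strands, TATAAA, the core of the TATA box, was in every chromosome 6 window. It was in 14 of 29 windows (48.3%), against 13.6% of all 32851 windows and 14.8% of 88 windows of other Vmn2r genes. All 8 chromosome 6 windows held it, at positions -135 to -121 from the annotated start, as did Vmn2r18 at -130. In these chromosome 6 windows the annotated start falls on an ATG triplet, and the positions are counted from there. In Vmn2r27 (chr6:124231735-124232034, minus strand) the motif and its reverse complement overlap in a run of 8 bases, shown in capitals.
Vmn2r27: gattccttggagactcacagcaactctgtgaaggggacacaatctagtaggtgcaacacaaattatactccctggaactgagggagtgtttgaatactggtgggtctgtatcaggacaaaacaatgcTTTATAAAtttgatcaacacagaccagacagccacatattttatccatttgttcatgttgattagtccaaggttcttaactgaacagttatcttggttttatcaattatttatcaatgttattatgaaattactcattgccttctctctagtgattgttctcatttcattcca

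The homeodomain core TAATTA was in 9 windows (31.03%, against 5.29% of all windows and 12.5% of other Vmn2r windows), including all 4 of Vmn2r84 to Vmn2r87, where it lay at positions -128 to -117 from the start. CCCNNGGG, a pattern bound by EBF factors, was in 1 window, that of Vmn2r89, at -191 from the start (3.45%, against 13.7% of all windows, and 22 of 88 other Vmn2r windows). The E-box CANNTG was in 28 windows (96.6%, against 72.3% of all and 97.7% of other Vmn2r windows). A match is a run of letters and not a measured site, and the positions are not distances from a measured transcription start. The annotated starts of Vmn2r84 to Vmn2r87 also fall on an ATG triplet. That of Vmn2r89 does not, so positions are not comparable between all genes.

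The highest levels per exon length belonged to 3 of the 4 genes that stand alone among the 31. Levels are given in RPKM, the CPM divided by exon length in kilobases, with the exon length of the files and library sizes scaled by TMM, as the mean ± SD over the 8 libraries. All 31 genes passed the filter on low counts, which left 20601 genes in all. The median of the 31 was 1.43 RPKM, beside 1.52 for the chromosome 7 genes, 0.833 for the chromosome 17 genes and 3.63 for all genes tested. The range from the lowest to the highest gene was 891-fold, and the top 3 genes held 54.9% of the summed RPKM. With exon lengths from GENCODE M21 in place of those in the files, a setting added after the data were seen, the range was 115-fold and the top 3 genes held 38.3%. Reads were not counted over the GENCODE exons, so these values show only how far a level depends on the length. The order was nearly the same in every library, with a Spearman correlation of 0.979 to 0.993 between libraries (28 pairs, 31 genes, a description that rests on gene length and mappability as well as on expression).

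Vmn2r89 of chromosome 14 was the highest, at 20.7 and 22.7 RPKM in the male pools, 19.9 and 25.4 in the female pools, 45.6 and 39.6 in the flushed females and 42.8 and 36.5 in the flushed males. Every flushed library lay above every pool, and the sexes overlapped. Its mean of 31.7 ± 10.58 was above the highest chromosome 7 gene (8.59) and the highest chromosome 17 gene (4.36).

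Vmn2r125 of chromosome 4, the annotated pseudogene, came next, at 10.37 and 10.32 RPKM in the male pools, 9.38 and 10.68 in the female pools, 20.7 and 20.3 in the flushed females and 22.6 and 18.5 in the flushed males. Pools and flushed mice formed separate ranges and the sexes overlapped. Of its 100-base transcript windows, 9.01% occur in another gene too, nearly all in Vmn2r-ps159.

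Vmn2r121 of the X chromosome was the third, at 5.68 and 6.29 RPKM in the male pools, 9.40 and 10.26 in the female pools, 20.7 and 17.4 in the flushed females and 11.96 and 9.33 in the flushed males. Here both sex and preparation separated the libraries, and the lowest flushed male fell below the highest female pool.

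The place of Vmn2r89, Vmn2r125 and Vmn2r121 at the top depends on the exon length used. In CPM, without length, Vmn2r89 (93.2) was followed by Vmn2r20 (69.5), Vmn2r121 (44.2), Vmn2r21 (43.3) and Vmn2r17 (39.95), and Vmn2r125 was at rank 12. With the GENCODE exon lengths, Vmn2r21 led (16.9), followed by Vmn2r89 (10.33), Vmn2r81 (7.95), Vmn2r121 (7.85) and Vmn2r125 (6.28). Those lengths do not match the exons counted, with 2562 against 14509 bases for Vmn2r21 and 9020 against 2945 for Vmn2r89. The 16.9 of Vmn2r21 is therefore not a measured level.

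Vmn2r18, the only 1 of the 31 on distal chromosome 5, was at their median. It had 0.909 and 1.09 RPKM in the male pools, 0.980 and 1.21 in the female pools, 2.04 and 1.94 in the flushed females and 1.599 and 1.705 in the flushed males. All flushed mice were above all pools, and the flushed females were above the flushed males.

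**Figure D2:**
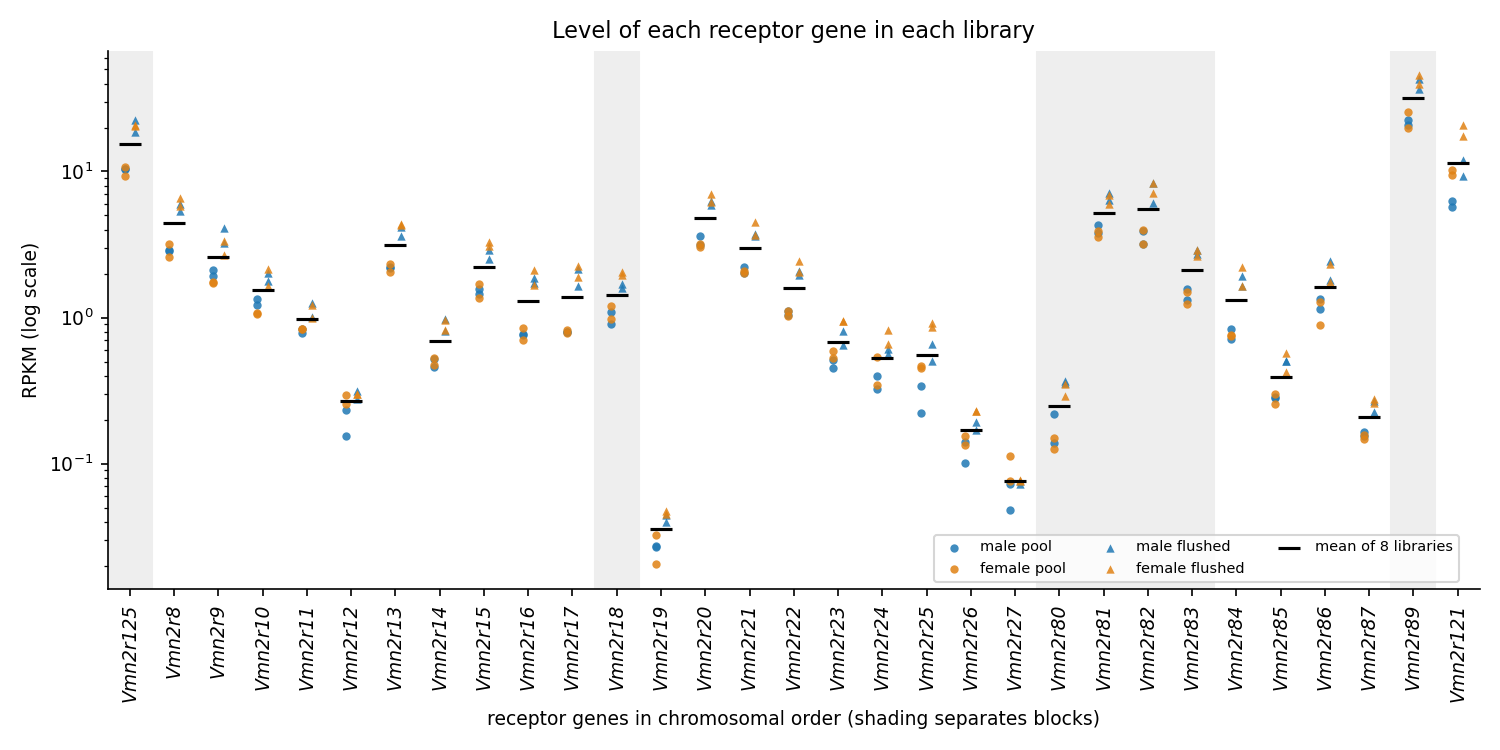
RPKM of each of the 31 genes (log axis) in each of 8 libraries, genes in chromosomal order with shading between blocks, circles for pools, triangles for flushed single mice, blue for males, orange for females and a dash for the mean. Vmn2r89, Vmn2r125 and Vmn2r121 at the ends have means of 31.7, 15.4 and 11.4, and Vmn2r19 has the lowest, 0.0355.

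Genes of the same block differed widely in level. Over the 23 pairs of neighbours within a block, the median ratio of mean RPKM was 2.36-fold and 10 pairs differed by more than 3-fold. In the chromosome 5 block, Vmn2r8 was the highest at 4.41 ± 1.68 RPKM, followed by Vmn2r13 (3.15), Vmn2r9 (2.61), Vmn2r15 (2.23), Vmn2r10 (1.53), Vmn2r17 (1.39), Vmn2r16 (1.31), Vmn2r11 (0.974) and Vmn2r14 (0.692). Vmn2r12 was the lowest at 0.267 ± 0.0521, 11.8-fold below its neighbour Vmn2r13, and the windows of these neighbours were 95.7% identical.

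Vmn2r8 was at 2.84 and 2.90 RPKM in the male pools, 2.58 and 3.19 in the female pools, 6.61 and 5.78 in the flushed females and 6.01 and 5.37 in the flushed males. All flushed mice lay above all pools. Of its exon bases, 177 are shared with Tmed11 on the same strand.

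Vmn2r12 was at 0.234 and 0.155 RPKM in the male pools, 0.257 and 0.295 in the female pools, 0.299 and 0.300 in the flushed females and 0.313 and 0.279 in the flushed males. The pools reached into the range of the flushed mice, and its mean count of 31.1 reads per library limits the precision.

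In the chromosome 6 block, 3 consecutive genes led. Vmn2r20 was at 4.79 ± 1.69 RPKM, Vmn2r21 at 2.99 and Vmn2r22 at 1.61, and these share a long stretch of sequence, with transcripts of Vmn2r20 and Vmn2r21 99.45% identical over 2560 bases. The transcripts of Vmn2r20 and Vmn2r22 were 97.7% identical over 2615 bases and those of Vmn2r21 and Vmn2r22 98.2% over 2562. After them came Vmn2r23 (0.680), Vmn2r25 (0.551), Vmn2r24 (0.532), Vmn2r26 (0.169), Vmn2r27 (0.0764) and Vmn2r19 (0.0355 ± 0.0102). Vmn2r19 and its neighbour Vmn2r20 were 135-fold apart, the widest step of any neighbours. With the GENCODE exon lengths this step was 30.4-fold, still the widest, and Vmn2r21 (16.9) stood above Vmn2r20 (4.47) and Vmn2r22 (3.24).

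Vmn2r20 was at 3.60 and 3.15 RPKM in the male pools, 3.19 and 3.04 in the female pools, 6.999 and 6.20 in the flushed females and 5.86 and 6.30 in the flushed males. The preparations did not overlap and the sexes did.

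Vmn2r19 was at 0.0271 and 0.0270 RPKM in the male pools, 0.0322 and 0.0204 in the female pools, 0.0454 and 0.0472 in the flushed females and 0.0447 and 0.0401 in the flushed males. The flushed mice were above the pools, on a mean of 8.52 counts per library.

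In the proximal chromosome 10 block, Vmn2r82 (5.51 ± 2.22 RPKM) and Vmn2r81 (5.23) were close together, with ranges over libraries that overlapped, while Vmn2r83 was at 2.10 and Vmn2r80 at 0.250 ± 0.104. Vmn2r80 and Vmn2r81 thus differed 20.96-fold as neighbours. With the GENCODE exon lengths they differed 6.69-fold, and Vmn2r81 (7.95) stood above Vmn2r82 (3.40). Vmn2r82 was at 3.90 and 3.17 RPKM in the male pools, 3.19 and 3.98 in the female pools, 8.28 and 7.16 in the flushed females and 8.31 and 6.05 in the flushed males. Vmn2r80 was at 0.139 and 0.220 RPKM in the male pools, 0.150 and 0.126 in the female pools, 0.348 and 0.291 in the flushed females and 0.368 and 0.355 in the flushed males. For both genes all flushed mice were above all pools.

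In the distal chromosome 10 block, Vmn2r86 was at 1.62 ± 0.552 RPKM, Vmn2r84 at 1.31, Vmn2r85 at 0.391 and Vmn2r87 at 0.207 ± 0.0571. Vmn2r86 was at 1.15 and 1.33 RPKM in the male pools, 0.889 and 1.27 in the female pools, 2.31 and 1.75 in the flushed females and 2.42 and 1.81 in the flushed males. Vmn2r87 was at 0.163 and 0.155 RPKM in the male pools, 0.157 and 0.147 in the female pools, 0.279 and 0.262 in the flushed females and 0.268 and 0.225 in the flushed males. Pools and flushed mice were separate for both, with much wider ranges within a preparation for Vmn2r86.

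How far a level can be assigned to a single gene varied among the 31. The deposited counts divide a read with several alignments between its targets, so that a count that is not whole marks shared reads. Such a count was found in all 8 libraries for 10 genes, and 21 had a whole count in at least 1 library. Of 100-base windows of annotated transcripts, the length of the reads, none of those of Vmn2r83 and 0.10% of those of Vmn2r23 occur in another gene, 1.33% of Vmn2r89 and 2.50% of Vmn2r121. Even so, counts were not whole in 6 of the 8 libraries for Vmn2r83 and in 4 for Vmn2r23. For Vmn2r89 and Vmn2r121 they were not whole in all 8. At the other end stood Vmn2r21 with 96.9%. Of all its windows, 66.5% occur in Vmn2r20 and 49.8% in Vmn2r22. These windows cover annotated transcripts of 2562 bases, whereas reads of Vmn2r21 were counted over 14509 exon bases. Next by this share came Vmn2r25 (24.6%), Vmn2r87 (20.8%), Vmn2r22 (17.9%) and Vmn2r24 (17.6%). The levels of Vmn2r20, Vmn2r21 and Vmn2r22 are therefore uncertain relative to each other. The 100-base windows were searched on both strands, and Vmn2r24 and Vmn2r25 overlap on opposite strands, which the strand-aware counting separates. Their shares with each other, 21.5% of Vmn2r25 and 17.3% of Vmn2r24, therefore overstate shared reads. Vmn2r25 had a count that is not whole in 2 of the 8 libraries.

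Between males and females, Vmn2r121 was the single gene of the 31 that was called, and it was lower in males. It was at 22.1 and 24.4 CPM in the male pools, 36.5 and 39.9 in the female pools, 80.6 and 67.6 in the flushed females and 46.5 and 36.2 in the flushed males. Females were above males within each preparation without overlap. The log2 difference, males minus females, was -0.78 with an SE of 0.09, or 1.72-fold (edgeR quasi-likelihood test with preparation as a term, adjusted p = 0.0113, 4 libraries against 4). Over all genes, 0.034% were called lower in males, 0.0825% higher and 0.116% in either direction. DESeq2 made the same single call among the 31 (adjusted p = 1.03e-11), where it called 0.165% of all genes lower in males and 0.437% higher.

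The call on Vmn2r121 was lost without male pool 1 (log2 difference -0.77, edgeR adjusted p = 0.0747) and within either preparation alone, where 2 libraries face 2 (-0.84 in flushed mice, edgeR adjusted p = 0.189, and -0.72 in pools, 0.489). Of all genes, those fits called 0.014%, 0.0348% and 0.00516% lower in males. As a share of the summed CPM of the 31 genes, Vmn2r121 held 9.08 to 9.44% in the 4 female libraries and 5.25 to 6.20% in the 4 males, in both preparations alike. Its close relatives did not pass between the sexes (edgeR), with log2 differences of -0.08 for Vmn2r89 (95% interval -0.28 to 0.11) and 0.03 for Vmn2r125 (-0.16 to 0.21). Whether these differ from the difference of Vmn2r121 was not tested. The red blood cell genes had a median sex difference of 1.36, higher in males, with 0 of 10 called (edgeR) and summed CPM of 114 to 1704 in females and 619 to 2085 in males, and their part in the result was not tested.

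**Figure D3:**
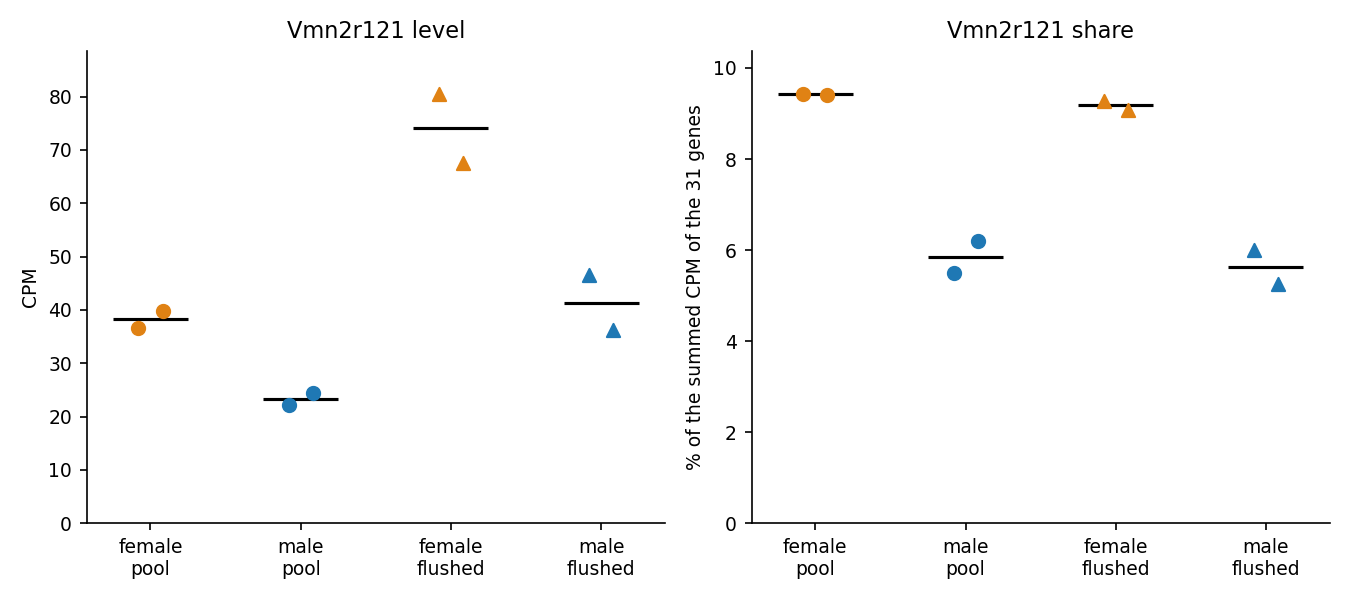
Vmn2r121 in each library, as CPM (left) and as % of the summed CPM of the 31 genes (right), points for libraries and lines for group means of 2. Males lie below females in both preparations, with shares of 5.25 to 6.20% against 9.08 to 9.44%.

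The other 30 genes did not pass for sex (edgeR). The next smallest p belonged to Vmn2r25 and Vmn2r23 of chromosome 6, with values below 0, and Vmn2r9, above 0. Vmn2r25 was at 1.84 and 1.21 CPM in the male pools, 2.44 and 2.53 in the female pools, 4.92 and 4.64 in the flushed females and 3.53 and 2.699 in the flushed males. Males were below females within each preparation (log2 difference -0.65, SE 0.16, 95% interval -1.01 to -0.29, edgeR adjusted p = 0.328). With no filter on low counts this gene passed as well (edgeR adjusted p = 0.0216), which makes 2 called of 31, where that fit called 1.41% of all genes lower in males.

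Vmn2r23 was at 5.40 and 6.14 CPM in the male pools, 6.29 and 7.07 in the female pools, 11.4 and 11.2 in the flushed females and 7.72 and 9.67 in the flushed males. Again both males were below both females in each preparation (-0.30, SE 0.11, 95% interval -0.54 to -0.06, edgeR adjusted p = 0.526). Such a separation within both preparations was found for 4 of the 31 genes, Vmn2r121, Vmn2r23, Vmn2r25 and Vmn2r27, and for 3.57% of all genes. The opposite order, males above females in both, was found for 0 of the 31 and 4.37% of all genes. Vmn2r9 of chromosome 5 had a difference above 0, at 23.0 and 20.9 CPM in the male pools, 19.02 and 18.66 in the female pools, 36.1 and 29.0 in the flushed females and 44.1 and 35.2 in the flushed males. The male pools were above the female pools, and the flushed sexes overlapped (0.25, SE 0.09, 95% interval 0.05 to 0.46, edgeR adjusted p = 0.528).

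All 9 genes of the chromosome 6 block had a sex difference below 0 (median -0.29, from -0.65 for Vmn2r25 to -0.01 for Vmn2r20), none of them past the threshold. Within flushed mice 9 of 9 were below 0, and within pools 5 of 8 tested, with Vmn2r20 (0.11), Vmn2r21 (0.05) and Vmn2r22 (0.005) above 0. In the chromosome 5 block 7 of 10 were below 0 (median -0.06), and in the proximal chromosome 10 block 1 of 4 (median 0.07). Over the 31 genes the median was -0.06 with 22 below 0, beside a median of -0.07 for chromosome 7 genes, -0.11 for chromosome 17 genes and -0.003 for all genes tested. Below 0 were 31 of 49 tested genes of chromosome 7, 18 of 30 of chromosome 17 and 10488 of all 20601. The median of the 31 was -0.001 without flushed female 2, -0.01 without flushed male 3, -0.007 within pools and -0.12 within flushed mice. Reads shared among Vmn2r20, Vmn2r21 and Vmn2r22 make these 3 values partly dependent on each other, so the 9 genes are not 9 independent values. Of the transcript windows of Vmn2r21, 66.5% occur in Vmn2r20 and 49.8% in Vmn2r22. Vmn2r24, Vmn2r25 and Vmn2r26 may share some reads as well, though the count of Vmn2r25 was not whole in only 2 libraries. The widest intervals belonged to the genes with the fewest reads, as for Vmn2r19 (-0.77 to 0.59) and Vmn2r27 (-0.91 to 0.25), so a difference of that size was not detectable there at this depth.

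**Figure D4:**
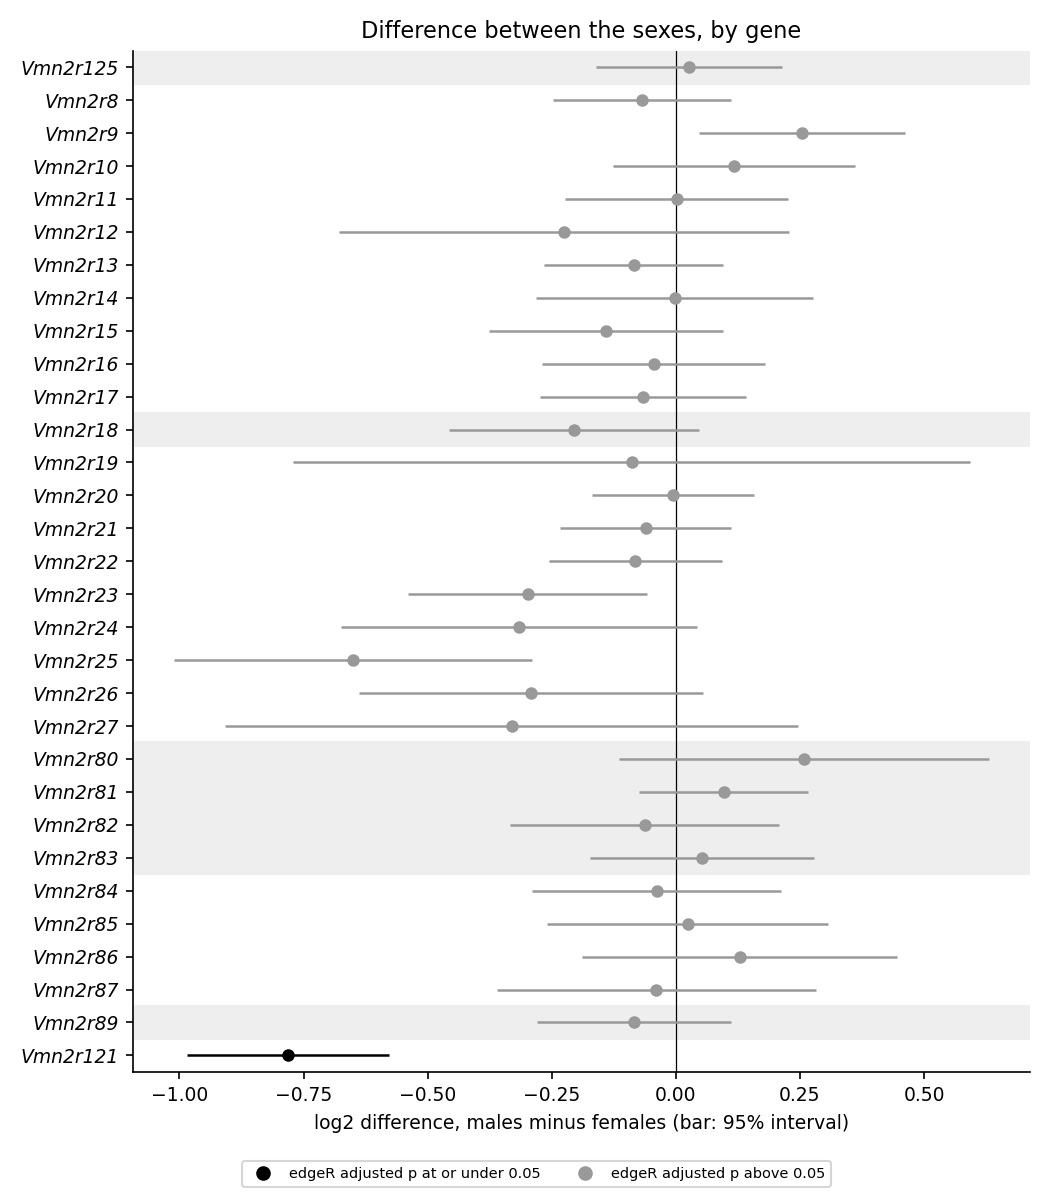
Log2 difference, males minus females, of each of the 31 genes with its 95% interval, genes in chromosomal order with shading between blocks and black for an edgeR adjusted p at or under 0.05. Vmn2r121 at the bottom is the black point at -0.78, and the 9 points from Vmn2r19 to Vmn2r27 all lie below 0.

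Relative to all RNA, nearly all of these receptors were higher in flushed single mice. Of the 31 genes, 28 rose and 0 fell (edgeR, adjusted over all genes tested), where 22.6% of all genes were called higher, 22.9% lower and 45.5% either way. The median log2 difference, flushed minus pools, was 0.89, beside -0.02 for all genes, 0.96 for chromosome 7 genes (46 of 49 tested rose) and 1.13 for chromosome 17 genes (25 of 30 tested rose). All 4 flushed libraries were above all 4 pools for 28 of the 31 genes and for 21.3% of all genes. Without the TMM scaling, the summed CPM of the 31 were 360 to 424 in pools and 695 to 911 in flushed mice.

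The smallest p-values belonged to Vmn2r17, Vmn2r20 and Vmn2r8. Vmn2r17 was at 22.9 and 23.0 CPM in the male pools, 23.6 and 22.5 in the female pools, 64.5 and 54.0 in the flushed females and 62.1 and 46.9 in the flushed males. The pools were tightly grouped and far below the flushed mice, a 2.47-fold difference (log2 1.31, SE 0.09, edgeR adjusted p = 1.91e-05). It was also the largest of the 31, followed by Vmn2r84 (1.28) and Vmn2r16 (1.26). Of the exon bases of Vmn2r17, 584 are shared with Gm18555 on the same strand.

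Vmn2r20 was 47.1 ± 3.58 CPM in pools and 92.0 ± 6.93 in flushed mice (log2 0.97, SE 0.07, edgeR adjusted p = 2.26e-05). Vmn2r8 was 23.0 ± 1.98 and 47.5 ± 4.13 CPM (log2 1.05, SE 0.08, edgeR adjusted p = 2.33e-05, n = 4 each). For both the groups did not overlap, as shown by the RPKM values per library above.

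Vmn2r27, Vmn2r12 and Vmn2r19 did not pass. Vmn2r27 was at 0.770 and 0.517 CPM in the male pools, 0.808 and 1.201 in the female pools, 0.820 and 0.816 in the flushed females and 0.773 and 0.806 in the flushed males. The flushed mice lay inside the range of the pools, and the log2 difference was -0.001 (SE 0.27, 95% interval -0.60 to 0.60, edgeR adjusted p = 0.998), with 17.8 counts per library on average. Vmn2r12 had a log2 difference of 0.34 (SE 0.20, 95% interval -0.12 to 0.79, edgeR adjusted p = 0.202) and Vmn2r19 of 0.78 (SE 0.31, 95% interval 0.08 to 1.47, edgeR adjusted p = 0.0649). These 3 have the lowest mean counts of the 31.

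By block, 9 of 10 genes rose in the chromosome 5 block (median 0.88), 7 of 9 in the chromosome 6 block (median 0.78), 4 of 4 in the proximal chromosome 10 block (median 1.03) and 4 of 4 in the distal one (median 0.84). The genes that stand alone among the 31 rose by 1.01 (Vmn2r125), 0.80 (Vmn2r18), 0.89 (Vmn2r89) and 0.90 (Vmn2r121). Of the genes that passed, Vmn2r11 had the smallest difference, 0.46. As a share of the summed CPM of the 31 genes, the blocks kept close to their place, for example 27.1 to 29.6% in pools and 28.6 to 31.5% in flushed mice for the chromosome 5 block, and 15.2 to 17.6% and 15.5 to 16.3% for Vmn2r89.

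Within sex, 25 of 31 genes rose in females and 24 of 30 tested in males, on 2 libraries against 2 (edgeR), where 13.8% and 12.7% of all genes were called higher. The difference had a Spearman correlation of -0.01 with exon length and 0.43 with level across the 31 genes, which are not independent replicates. Among genes that are no receptors, the median log2 difference went from -0.12 for exons up to 1000 bases to 0.29 above 16000, while the 15 receptors above 8000 and up to 16000 bases had 0.84 beside 0.14 for other genes of that length.

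Measured against each other, the receptors differed much less between preparations. As a share of all Vmn2r counts, the 31 genes stayed between 26.7 and 28.5% in every library. Library sizes were also taken over the other receptor genes. These are the tested Vmn1r (type 1 vomeronasal receptor), Vmn2r and Fpr-rs (formyl peptide receptor) genes outside the 31. On this scale the median of the 31 was -0.05, with 3 called higher, namely Vmn2r17 (0.36), Vmn2r84 (0.33) and Vmn2r16 (0.31). There, 4 were called lower by edgeR, Vmn2r27 (-0.93), Vmn2r12 (-0.60), Vmn2r11 (-0.49) and Vmn2r10 (-0.24). That scaling moves the median of all genes to -0.96, and calls 0.898% of all genes higher and 82.9% lower. Vmn2r10, Vmn2r11 and Vmn2r12 are neighbours on chromosome 5, and Vmn2r16 and Vmn2r17 lie at the other end of the same block. The background for these counts is the whole table, most of which is lower on this scale.

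**Figure D5:**
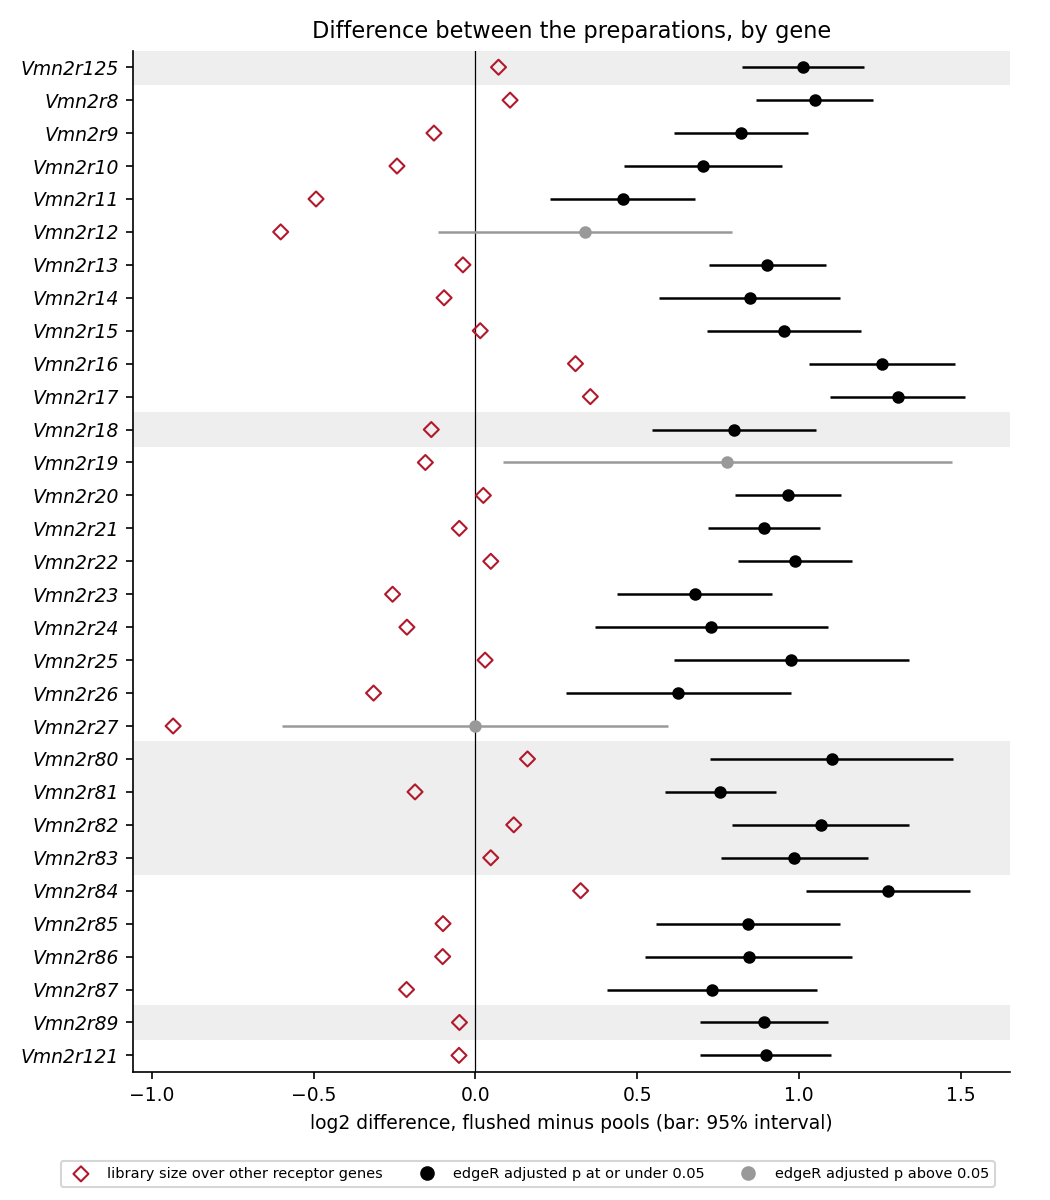
Log2 difference, flushed single mice minus pools, of each of the 31 genes, with points and 95% intervals for library sizes scaled over all genes and open diamonds for library sizes over the other receptor genes. Points centre on a median of 0.89 and diamonds on -0.05, and Vmn2r12, Vmn2r19 and Vmn2r27 are grey, with an edgeR adjusted p above 0.05.

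The family C co-receptors rose with these receptors, while most other partner genes did not pass. Of the family C genes, 6 of 6 tested rose, Vmn2r1 to Vmn2r6 (median log2 difference 0.86), for example Vmn2r6 from 65.0 ± 2.02 to 121 ± 8.74 CPM. Of the H2-M genes, which encode class Ib molecules found beside Vmn2r receptors, 1 of 9 rose and 0 fell (median -0.01). Of 16 basal partner genes that are no receptors, 2 rose, B2m (0.46) and H2-M9 (0.34), and 1 fell, Calr4 (-0.29), while Gnao1 had -0.15 (edgeR adjusted p = 0.0858).

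Genes shared by all vomeronasal neurons had a median of -0.15, with 2 of 9 up (Syt1 0.51 and Snap25 0.50) and 2 down (Ano1 -0.20 and Ncam1 -0.16). With library sizes over these neuron genes, an alternative added after the data were seen, 28 of the 31 receptors were called higher, with a median of 0.99, beside 25.1% of all genes and a median of 0.08. Of apical neuron genes 2 of 5 rose and 2 fell, and of main olfactory neuron genes 1 of 6 rose and 1 fell.

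Genes of other tissue moved with preparation as well, and their part in the receptor differences was not tested. All 10 red blood cell genes fell in flushed mice (median -2.21, for example Hbb-bs from 643 ± 74.3 to 119 ± 92.4 CPM), as did all 9 neutrophil genes (median -1.61, summed CPM 8616 to 11790 in pools and 6600 to 9046 in flushed mice, most of it Ltf, lactoferrin, which glands also secrete). Of 10 fibroblast and matrix genes 7 fell and 2 rose (median -0.79, summed CPM 38870 to 49930 and 18690 to 24730). Of 8 gland secretion genes 3 fell and 1 rose (median -0.15). Between the sexes, 2 gland genes were higher in males, Obp2a (0.57, edgeR adjusted p = 0.0301) and Lcn4 (0.53, 0.0276), and none of the other lists had a call.

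Whether the sex difference itself depended on preparation was tested by the interaction term. It passed for 0 of the 31 genes (edgeR, and 0 by DESeq2), where 0.0485% of all genes were called by edgeR, 0.0291% positive and 0.0194% negative. DESeq2 called 0.0485% of all genes positive and 0.0874% negative. At an unadjusted edgeR p under 0.05 there were 0 of the 31, beside 3.25% of all genes. The smallest unadjusted p, of Vmn2r20, was 0.12 (edgeR, adjusted p = 1.00). For Vmn2r121 the interaction was -0.12 (SE 0.19, 95% interval -0.55 to 0.30), and with 2 libraries a group the intervals are wide for all 31.

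Between replicates, the spread of the 31 genes was near that of other genes of their level. Taken as the SD of log2(CPM + 0.5) left after removing each of the 4 group means, it had a median of 0.151 for the 29 genes that averaged at least 20 counts. It was 0.148 for chromosome 7 genes, 0.138 for chromosome 17 genes and 0.139 for 6671 other genes of like level (4.35 to 25 CPM). The most variable were Vmn2r86 (0.274), Vmn2r24 (0.240) and Vmn2r82 (0.230), and the least were Vmn2r87 (0.0870), Vmn2r13 (0.0974) and Vmn2r20 (0.102).

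The spread of Vmn2r86 came from both preparations, since female pool 1 had 8.63 CPM beside 11.2 to 12.9 in the other pools, and the flushed mice ran from 16.95 to 23.50. Vmn2r24 was at 3.15 and 2.58 CPM in the male pools, 2.76 and 4.27 in the female pools, 6.58 and 5.25 in the flushed females and 4.82 and 4.48 in the flushed males. Female pool 2 was the high pool and flushed female 2 the high flushed mouse. Vmn2r13 was at 12.3 and 12.5 CPM in the male pools, 11.6 and 13.2 in the female pools, 24.3 and 24.6 in the flushed females and 23.6 and 20.3 in the flushed males, with narrow groups that did not overlap between preparations.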

How the data were processed

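RNA-seq libraries of vomeronasal epithelium were analysed from the count tables the authors deposited. The 31 genes and the gene lists were chosen with earlier results of these data known. Per the submitters' processing notes, STAR 2.7.1a and featureCounts 1.6.5 were used. Per the file headers, reads were counted by strand over exons of an Ensembl GRCm38 annotation that the authors had changed, and multi-mapping reads were counted as fractions. The values the authors deposited are therefore estimated counts made by featureCounts, per the file headers, and 10.16 to 11.79% of genes per library had a count that is not whole. Counts were rounded for the tests, and levels, shares and spreads use the unrounded counts.

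Genes were tested with edgeR 4.0.16 (quasi-likelihood, TMM, filterByExpr, R 4.3.3), with sex and preparation as terms over all 8 libraries, and with their interaction. Benjamini-Hochberg adjustment ran over all 20601 genes tested, with a threshold of 0.05. Standard errors were derived as the absolute log2 difference divided by the square root of edgeR's F statistic. Intervals of 95% use these and edgeR's degrees of freedom. For Vmn2r27 between preparations this is a ratio of very small numbers. RPKM was computed from TMM-scaled CPM and the exon length in the files. Replicate spread used log2(CPM + 0.5) where the mean count was at least 20. Start-site windows came from RefSeq (GRCm38.p6), and transcripts were compared with blastn 2.17.0.

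Values in every library are given for the highest and lowest gene of each block, for genes called for sex or with the 3 smallest sex or preparation p, for those without a preparation call and for the 3 largest and 3 smallest spreads. Alternatives were DESeq2 1.42.0, edgeR's RLE (relative log expression) factors in place of TMM, no filter, other library sizes and other exon lengths. Further alternatives were each sex or preparation alone and leaving out each library. The fits were tested on simulated data. Total counts of 18763557 to 24965088 per library set the precision.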

Additional observations from a re-analysis of the deposited data

Results flagged for a closer look

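In 5 of 124 sets of 4 libraries, the highest or lowest library stood farther from the other 3 than Dixon's 95% critical value allows. Chance flags about 1 in 20 groups of like libraries, or 6.2 of 124. The sets by sex mix pools with flushed mice, which differ for most of the genes and make a flag unlikely. The 6.2 is therefore no fair expectation for these sets. Vmn2r11 was at 9.79 CPM in male pool 2 and at 10.302 to 10.375 in the other pools. Vmn2r12 was at 1.35 CPM in female pool 1 and at 1.55 to 1.58 in the other females. Vmn2r21 was at 65.5 CPM in flushed female 2 and at 52.5 to 54.0 in the other flushed mice. Vmn2r27 was at 1.2 CPM in female pool 2 and at 0.808 to 0.820 in the other females, and at 0.517 CPM in male pool 2 and at 0.770 to 0.806 in the other males.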

How the results depend on the processing

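The count of genes lower in males was 1, and it was 2 with no filter on low counts, 0 within flushed mice, 0 within pools and 0 to 1 when each library was left out in turn. The loss came without male pool 1, and the log2 difference of Vmn2r121 stayed between -0.84 and -0.70 (edgeR adjusted p 0.0184 to 0.0747). With library sizes over the other receptor genes, the preparation counts were 3 higher and 4 lower, and the log2 differences of Vmn2r12 and Vmn2r19 turned to -0.60 and -0.16. That scaling by construction removes what all receptors share. The value of Vmn2r27, near 0, turned sign under DESeq2 (0.012), edgeR's RLE factors (0.0041), no filter (0.030) and neuron marker scaling (0.11). It also did so within males (0.31) and over libraries left out (-0.12 to 0.20). With GENCODE exon lengths, 1 of the 3 highest genes remained among the 3 highest. For the single genes named, 116 values kept direction and side of the threshold, 11 reversed, 5 lost the call and 2 gained one. Of the summary values, 87 stayed and 7 moved, and the cause was not tested where none is given. No paired analysis was possible because the labels of the pools carry no replicate number, so that their numbers, given in accession order, pair nothing, and the numbered flushed mice share 1 number between the sexes. Depth limits the values of Vmn2r19, Vmn2r27 and Vmn2r12.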

Other observations

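A pair of relatives outside the 31 genes was looked at after their values were seen. Vmn2r-ps159 (chr4:156331103-156339499), the neighbour of Vmn2r125, was at 24.96 ± 8.34 RPKM (SD, n = 8), above all of the 31 genes except Vmn2r89. Its log2 difference was 0.90 between preparations (edgeR adjusted p = 2.4e-05) and 0.11 between the sexes (edgeR adjusted p = 0.763). Vmn2r88 (chr14:51411001-51420712), on the same strand as its chromosome 14 neighbour Vmn2r89, was at 20.58 ± 10.03 RPKM. Its log2 difference was 1.37 between preparations (edgeR adjusted p = 1.44e-05) and 0.02 between the sexes (edgeR adjusted p = 0.984).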
